A study of Mus musculus with 123 samples.

Results

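The passage from morula to early inner cell mass (ICM) was examined in 16 single-embryo RNA-seq libraries of the Oct4 Ctrl genotype, out of 96 Ctrl and KO libraries of the series, which also holds embryos of mothers with an intact gene, labelled MWT. These are all libraries that the labels give as Oct4 Ctrl morula (8 embryos) or Oct4 Ctrl early ICM (8 embryos), and MWT embryos were left out. Oct4 is the protein of the gene Pou5f1. The mothers of Oct4 Ctrl embryos carried floxed Pou5f1 on both copies together with Zp3-Cre, a recombinase driven by a promoter active in growing oocytes, and the fathers were heterozygous for a Pou5f1 knockout allele marked with the fluorescent protein mKO2. Oct4 Ctrl embryos were the unlabelled offspring of this cross: they had no maternal Oct4 and 1 intact paternal copy of the gene, so neither group is wild type. The labels give B6C3F1 for all of these embryos. Morulae were whole embryos collected at E2.75 with no inhibitor. Early ICMs (E3.75) came from embryos taken at E2.5 and cultured with PD0325901 at 1 µM, an inhibitor of the kinase MEK, and their trophectoderm was removed by immunosurgery, in which antibodies and complement lyse the outer cells. Stage, culture, MEK inhibition and removal of the outer cells therefore changed together and cannot be told apart.

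As background, the morula is a compact ball of cells that has just polarised. Its outer cells become the trophectoderm, the first epithelium and the source of the placenta, and its inner cells become the ICM, which then divides into the epiblast, the founder of the fetus, and the primitive endoderm, which lines the yolk sac. Oct4, Sox2 and Nanog are the transcription factors best known for maintaining pluripotent cells of the ICM. FGF signalling through MEK drives ICM cells toward primitive endoderm, and a MEK inhibitor keeps them toward the epiblast.

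Libraries were 3′ end counts of unique molecular identifiers (UMIs), molecular tags that let copies made by PCR be counted once. Total UMIs ran from 892693 to 1059896 in morulae and from 784645 to 938150 in early ICMs. The mean difference was -132200 UMIs (two-sided exact permutation test over all splits of the embryos, p = 0.000311, 0.000622 after Benjamini-Hochberg adjustment over 4 measures). Early ICMs also had fewer detected genes (12886 to 13632 against 13238 to 13912, exact permutation p = 0.0205, adjusted p = 0.0273) and a smaller share of UMIs in the 100 most abundant genes (26.4 to 28.1% against 27.96 to 29.2%, exact permutation p = 0.000311, adjusted p = 0.000622). The share of mitochondrially encoded UMIs was 4.43 to 6.29% in morulae and 4.52 to 5.82% in early ICMs (exact permutation p = 0.507). In a principal component analysis of the 500 most variable genes of these embryos, the first component held 72.2% of the variance. It separated the groups without overlap (morulae -39.3 to -20.6, early ICMs 25 to 34.6). Such a choice of genes favours those that differ between the groups.

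The early ICM labelled 9 stood apart in markers of the trophectoderm. It held 455 CPM (UMI counts scaled to a common library size) of the keratin Krt18, against 10.7 to 117 in the other early ICMs, and 29.0 CPM of Elf5, against at most 2.27. The summed level of 24 trophectoderm genes was 2503 CPM in this embryo, 591 to 1345 CPM in the other early ICMs and 1093 to 2244 CPM in morulae. Where a call changed without it, that is stated beside the gene or list. The defining epiblast markers Nanog, Sox2, Pou5f1, Fgf4, Gdf3 and Utf1 were present in all 8 early ICMs. Of markers that could come with the antiserum or blood, Ighm, Igkc, Cd79a and Hba-a1 together held at most 5 UMIs each in either group. With 10 UMIs from the Y chromosome as the limit, 2 of 8 morulae and 4 of 8 early ICMs carried a Y, so the sexes were unevenly spread over the groups. In these data a lower count in early ICMs can reflect fewer cells of a type or less RNA per cell, which cannot be told apart.

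A gene was tested when 0.5 or more of the embryos of a stage held it, and among the 14053 such genes edgeR called 1988 higher and 2092 lower in early ICMs, which are 14.1% and 14.9% of the genes tested (29.0% in either direction). A call means a Benjamini-Hochberg adjusted p under 0.05 and a log2 fold change of at least 1 in size. For 2305 genes (16.4%) the 8 early ICMs and the 8 morulae did not overlap, and 1674 of these were called. Genes called higher took 3.94% of all UMIs in morulae and 12.5% in early ICMs, and genes called lower took 16.4% and 5.97%. The median log2 fold change of all genes tested was 0.00 after scaling with TMM and 0.10 when only total UMIs were used for scaling, and changes below are relative to the TMM scale.

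**Figure D1:**
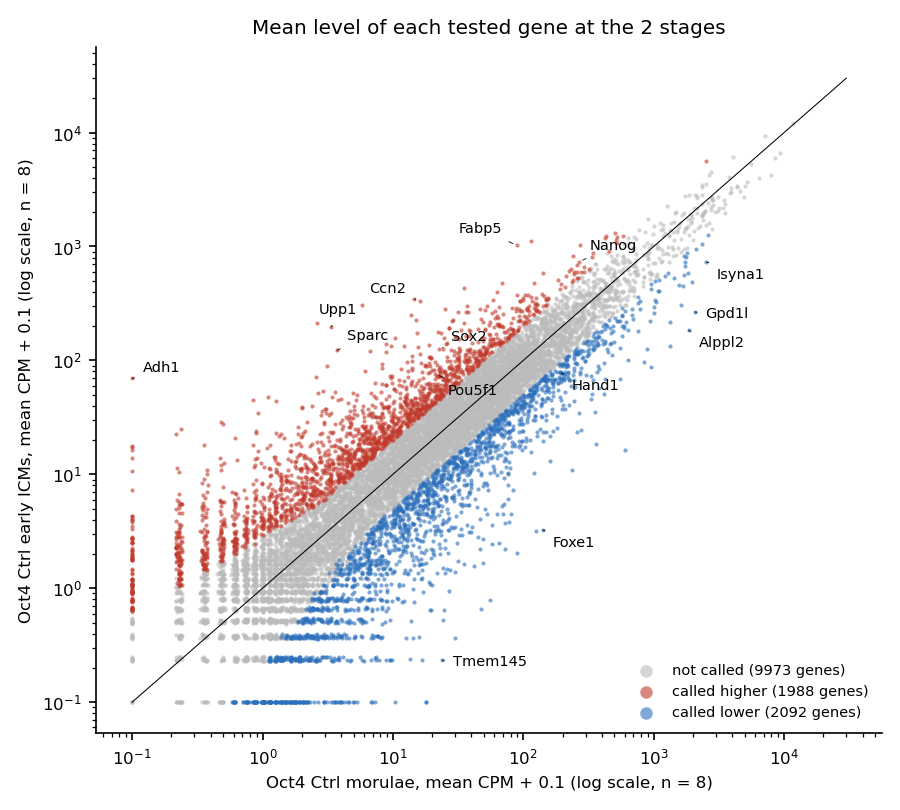
Mean CPM plus 0.1 of each of the 14053 tested genes in 8 Oct4 Ctrl morulae (x axis) and 8 Oct4 Ctrl early ICMs (y axis), both on log scales; red points are the 1988 genes called higher and blue points the 2092 called lower. The line marks equal levels, and some genes described in the text are named.

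The gene of Oct4 itself was higher in early ICMs than in morulae of Oct4 Ctrl, and its change differed from that in Sox2 Ctrl embryos, which is given with the comparison of the lines. Pou5f1 (mm10 chromosome 17, 35506018 to 35510772, plus strand) was at 13.3, 23.0 and 26.6 CPM in morulae (lowest, median, highest) and at 57.4, 78.7 and 88.8 CPM in early ICMs. Every early ICM was above every morula, and the log2 fold change was 1.85 ± 0.21 (SE, n = 8 and 8, adjusted p 2.93e-12). Pou5f1 overlaps the antisense gene Gm19553, and the strand setting of the counting is not stated, so reads of both genes cannot be separated here. The same limit holds for many other genes named here that overlap an annotated gene, among them Bmp4, Ccn2, Cebpb, Cyp51 and Fosl1. The Pou5f1 promoter is shown because it holds the AGGTCA hexamer that orphan nuclear receptors bind, from base -33 to -28 before the start in RefSeq, which is not the same base as the start of the gene in the mm10 annotation. The sequence is from RefSeq on GRCm38.p6, chr17:35505782-35506081, plus strand, and runs from 250 bases before to 50 after the annotated start, with the hexamer in capitals.
Pou5f1: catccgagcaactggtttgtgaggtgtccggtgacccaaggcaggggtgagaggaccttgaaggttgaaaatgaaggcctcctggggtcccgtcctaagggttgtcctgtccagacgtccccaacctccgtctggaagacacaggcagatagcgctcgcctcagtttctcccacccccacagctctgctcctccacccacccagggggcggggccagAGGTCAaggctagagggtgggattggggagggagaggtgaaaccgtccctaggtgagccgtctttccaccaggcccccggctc
AGGTCA was searched on both strands. It is present in 12.1% of the 10094 promoters of tested genes that the table holds, in 11.6% of those called higher and in 11.6% of those called lower. Nr5a2, an orphan receptor that binds this hexamer and a gene chosen after its values were seen, was at 143 to 249 CPM in morulae and 145 to 261 CPM in early ICMs and was not called (0.05 ± 0.19, adjusted p 0.848).

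Sox2, the partner of Oct4 on DNA, rose as well. It was at 11.2, 23.1 and 44.1 CPM in morulae and 79.5, 124 and 176 CPM in early ICMs, without overlap (2.48 ± 0.31, adjusted p 4.24e-11). Sox2 lies within the longer transcript Sox2ot on the same strand, so part of its count may belong to that gene. Nanog rose from 188, 255 and 348 CPM to 385, 751 and 933 CPM (1.45 ± 0.24, adjusted p 1.96e-07), again with every early ICM above every morula. Over the list of 19 tested pluripotency transcription factors, 10 were called higher and 1 lower, with a median log2 fold change of 1.02 against 0.00 for all genes. The others called higher were Esrrb, Klf4, Tfcp2l1, Prdm14, Zfp42, Tcf7l1 and Foxd3. The strongest were Foxd3, a forkhead repressor (0 to 2.20 CPM in morulae, 0 to 61.2 CPM in early ICMs, 4.39 ± 1.10, adjusted p 0.00054), and Prdm14, a regulator of germ cell and naive pluripotency genes (0 to 14.4 CPM against 14.4 to 52.9 CPM, 2.49 ± 0.44). Foxd3 varied widely among the early ICMs, while for Prdm14 the highest morula and the lowest early ICM lay at the same level. Myc, a growth regulator, was the member that fell, from 10.2, 29.9 and 88.4 CPM to 1.20, 5.98 and 25.9 CPM (-2.23 ± 0.49, adjusted p 7.05e-05). Klf5 and Tbx3, abundant in both groups, were not called (0.88 ± 0.16 and 0.65 ± 0.18), although no early ICM overlapped the morulae in Klf5. Klf5 was called higher without the morula labelled 11. Without the early ICM labelled 9 the list had 8 members called higher.

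**Figure D2:**
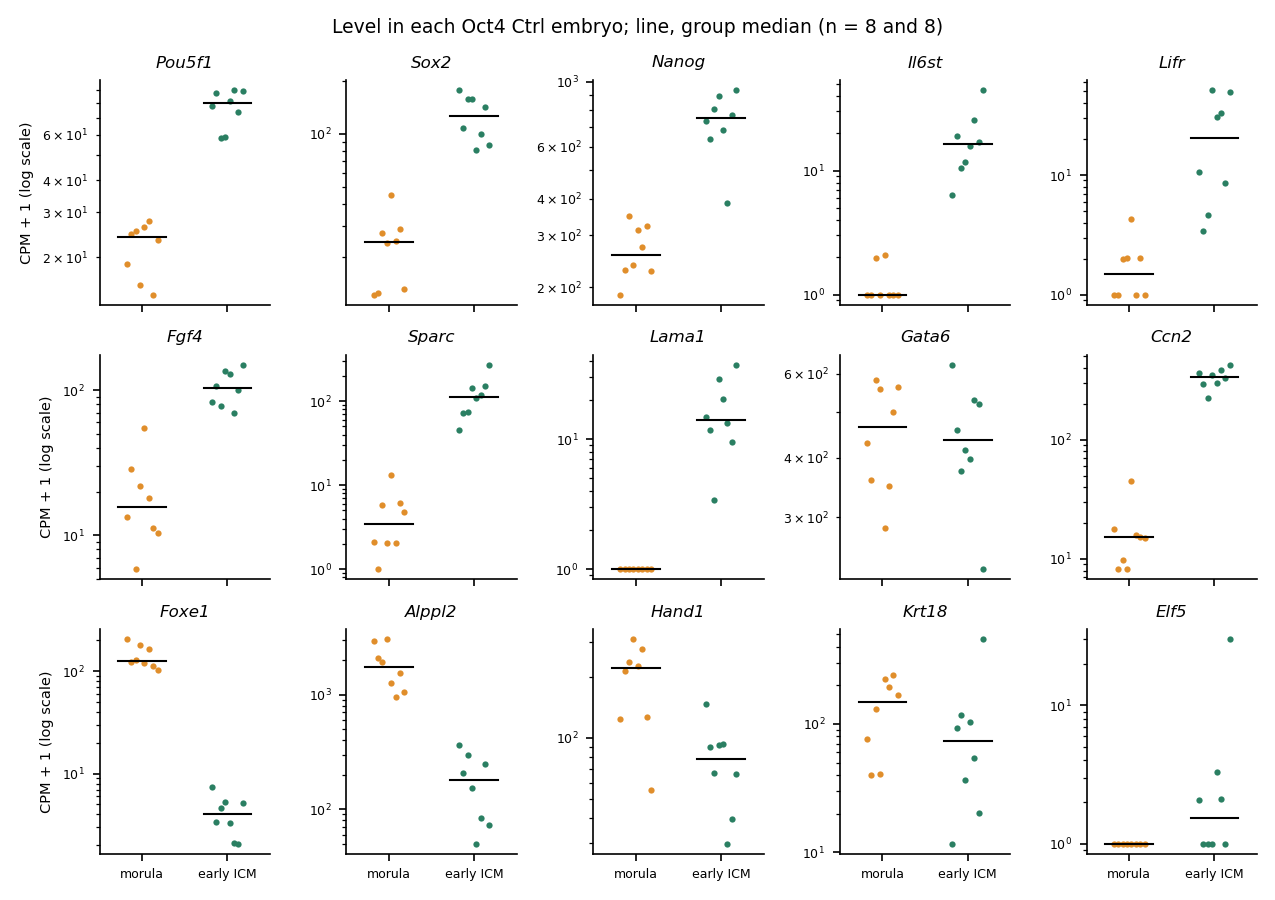
CPM plus 1 (y axis, log scale) of 15 genes in each of 8 Oct4 Ctrl morulae (orange) and 8 early ICMs (green); black lines are group medians and points within a group have no order. Pou5f1, Sox2, Nanog, Fgf4, Sparc and Ccn2 do not overlap between the groups, Gata6 covers the same range in both, and the single high early ICM of Krt18 and Elf5 is the one labelled 9.

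Genes that mark the epiblast and ICM were next. Of 22 tested, 11 were called higher and 2 lower (median 1.11). Fgf4, the ligand that epiblast cells send to their neighbours, was at 4.85, 14.6 and 54.0 CPM in morulae and 68.8, 102 and 148 CPM in early ICMs (2.44 ± 0.38, adjusted p 5.42e-08). Gdf3, a TGF-beta family ligand, had medians of 8.36 and 45.7 CPM (2.65 ± 0.33), and Utf1, a chromatin factor of pluripotent cells, had medians of 65.4 and 138 CPM (1.14 ± 0.21). The 3 largest rises were those of Spp1 (osteopontin, a secreted phosphoprotein), Bmp4 (a ligand) and Otx2 (a homeobox factor of the maturing epiblast). Spp1 ran from 0 to 29.7 CPM in morulae and from 14.4 to 1035 CPM in early ICMs (5.74 ± 0.85, adjusted p 1.38e-08). Bmp4 held 2 UMIs over all morulae and 51 over all early ICMs, a depth-corrected ratio of 3.65% (exact 95% interval 0.43% to 13.9%, counting error only). Otx2 rose from a median of 1.58 to 22.7 CPM (3.70 ± 0.64). Pou3f1, which marks later epiblast, fell from a median of 5.88 to 0.53 CPM (-3.0 ± 0.64), and Lefty1 was called lower (10 UMIs and 1), a call that was lost under most alternatives, the early ICM labelled 9 left out among them. The abundant Dppa3 (2283 to 2937 CPM against 1984 to 2879 CPM, -0.14 ± 0.16) was not called. Nor was Dppa5a (0.84 ± 0.17).

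In the LIF pathway, which sustains naive pluripotency through STAT3, the receptor chains rose. Il6st (gp130, the shared signalling chain) held 2 UMIs in all morulae together and 130 in early ICMs, and every early ICM was above every morula (0 to 1.10 CPM against 5.32 to 43.5 CPM, adjusted p 3.31e-13). Lifr, the LIF-binding chain, had medians of 0.49 and 19.6 CPM (4.67 ± 0.81, adjusted p 8.02e-07). Stat3, the transcription factor, went from a median of 61.3 to 198 CPM (1.60 ± 0.17), and Pim3, a kinase downstream, from 18.6 to 56.7 CPM (1.61 ± 0.23). In the other direction, the ligand Lif (-1.26 ± 0.47), the kinases Jak2 (-1.49 ± 0.45) and Tyk2 (-1.53 ± 0.23) and the feedback inhibitor Socs3 (-1.77 ± 0.48) were lower. In all, 4 of 14 members were called higher and 4 lower. The abundant Pim1 (-0.68 ± 0.25) and Ptpn11 (0.81 ± 0.14) were not called.

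Primitive endoderm genes had the largest median of any list here, 2.23, with 11 of 18 called higher and 1 lower, in embryos held in a MEK inhibitor. Most of the members that rose encode matrix or secreted proteins. Sparc, a matrix glycoprotein, was at 0, 2.42 and 12.1 CPM in morulae and 44.7, 112 and 271 CPM in early ICMs (5.04 ± 0.51, adjusted p 1.25e-14). The laminin chain Lamb1 went from a median of 12.9 to 161 CPM (3.53 ± 0.33). Lama1, another laminin chain, had 0 UMIs in morulae and 121 in early ICMs, which with a floor of 3 UMIs over the group is at least 43.3-fold higher. The collagen chaperone Serpinh1 went from a median of 2.07 to 63.8 CPM (3.70 ± 0.67), and Lamc1, Col4a1, Col4a2 and Cubn were also called higher.
Among the factors that define the lineage the picture was mixed. Gata6, the earliest of them, was at 284, 463 and 581 CPM in morulae and 232, 435 and 626 CPM in early ICMs and was not called (-0.03 ± 0.24). Gata4 was not called either (46 UMIs in morulae and 13 in early ICMs), Foxa2 had 0 UMIs in both groups, which limits it to 3 UMIs over each, and Sox7 had 2 UMIs in each. Sox17 had 0 UMIs in morulae and 53 in early ICMs, at least 18.98-fold higher, with early ICMs between 0 and 18.2 CPM. Pdgfra, a receptor of the lineage, rose from a median of 7.75 to 36.8 CPM (2.40 ± 0.50). Hnf4a, a nuclear receptor, rose from 1.03, 3.13 and 5.82 CPM to 19.3, 36.4 and 55.0 CPM (3.59 ± 0.39). Amn, a component of the endocytic receptor with cubilin, fell (-2.59 ± 0.69), and P4ha2 was not called (0.14 ± 0.32).

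Targets and feedback genes of the MAPK pathway, the pathway that the inhibitor blocks, were called higher in 8 of 19 cases and lower in 3. The median log2 fold change was 0.45, and 0.32 with members at 0 UMIs in a group set to their bound. Without the morula labelled 15 it was 1.01. Immediate early genes were among the higher ones. Egr1 held 6 UMIs in morulae, nearly all in the embryo labelled 15 (5.51 CPM, against at most 1.04 CPM in the others), and 7.45, 43.1 and 63.0 CPM in early ICMs (5.24 ± 0.69, adjusted p 3.75e-10). Fos behaved alike, with 0 to 5.51 CPM against 8.88 to 23.6 CPM (4.14 ± 0.66), and Ier2 had medians of 18.97 and 101 CPM (2.40 ± 0.23). Of the genes that read out FGF signalling, Etv5, an ETS factor, rose from 5.82, 16.8 and 24.7 CPM to 51.4, 92.0 and 142 CPM (2.54 ± 0.28). Spry2, a feedback inhibitor, rose from a median of 34.5 to 166 CPM (2.08 ± 0.20), and the phosphatase Dusp6 from 4.66 to 22.6 CPM (1.92 ± 0.49). The phosphatase Dusp4 (-2.19 ± 0.59), the inhibitor Spred1 (-1.34 ± 0.38) and Fosl1 (38 UMIs against 2) fell. Spred2 and Phlda1 were not called (-0.25 ± 0.16 and -0.07 ± 0.31).

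Trophectoderm genes did not move one way. Of 24 tested, 7 were called higher and 6 lower (median 0.16), and without the early ICM labelled 9 the counts were 3 higher and 6 lower (median -0.23). Elf5 and Gata2, transcription factors of the trophectoderm lineage, lost their calls without it (adjusted p 0.141 and 0.224). In Elf5 the morulae had 0 UMIs and the early ICMs 32, most of them in that embryo. Genes of the outer cells that fell were Dab2, an endocytic adaptor (195, 347 and 386 CPM against 22.5, 56.7 and 157 CPM, -2.16 ± 0.34, adjusted p 1.01e-07), its partner receptor Lrp2 (27.1, 139 and 199 CPM against 8.58, 17.4 and 43.8 CPM, -2.55 ± 0.41), and Hand1, a helix-loop-helix factor (medians 221 and 77.4 CPM, -1.34 ± 0.44). Krt7 fell from 47 UMIs to 8. The defining marker Cdx2 (7.28 to 27.6 CPM against 4.28 to 34.2 CPM, -0.15 ± 0.38), Gata3 (0.27 ± 0.34), Krt8 (-0.73 ± 0.43) and Krt18 (-0.31 ± 0.53) were not called. Without the early ICM labelled 9 the values of Gata3, Krt18 and Krt8 were -0.09, -1.17 and -0.9988, none of them called. Trophectoderm messages were thus still counted in the isolated ICMs, and the part of outer cells that remained in them was not tested. Anxa6, an annexin (0 to 8.81 CPM against 14.9 to 60.1 CPM, 3.46 ± 0.41), and Plac1 (0 to 3.35 CPM against 4.26 to 46.7 CPM, 3.44 ± 0.54) rose without overlap.

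Among 23 genes of epithelial junctions and the blastocyst cavity, 8 were called higher and 3 lower (median 0.18, and negative in the 6 embryos with shared numbers). Ezr, which ties the apical membrane to actin, was at 7.81, 18.4 and 57.3 CPM in morulae and 229, 272 and 377 CPM in early ICMs (3.50 ± 0.32, adjusted p 1.84e-16). It overlaps Sytl3 on the other strand. Pard3, a polarity scaffold, rose from a median of 32.1 to 113 CPM (1.75 ± 0.16). The water channel Aqp8 had 0 UMIs in morulae and 126 in early ICMs, at least 45.1-fold higher. Its relative Aqp9 fell (-1.34 ± 0.32), as did the tight junction proteins Cldn6 (medians 84.1 and 10.4 CPM, -2.83 ± 0.44) and Cldn7 (210 and 75.5 CPM, -1.49 ± 0.25). Cdh1 (E-cadherin) and Cldn4 were not called (0.52 ± 0.14 and -0.99 ± 0.22), but Cldn4 was called lower without the early ICM labelled 9 or the morula labelled 11. In the Hippo pathway, which reads cell position in the morula, 4 of 20 members were called higher and 4 lower (median -0.60). Its best known target genes Ccn2 and Ccn1, secreted matricellular proteins, were the largest rises: Ccn2 was at 7.21, 14.1 and 44.1 CPM in morulae and 221, 338 and 424 CPM in early ICMs (4.39 ± 0.38, adjusted p 1.14e-17), and Ccn1 had medians of 7.54 and 77.7 CPM (3.39 ± 0.50). Of the TEAD factors, Tead1 rose (1.60 ± 0.20) and Tead3 fell (-2.13 ± 0.62), while the coactivators Yap1 (0.34 ± 0.12) and Wwtr1 (0.39 ± 0.19) were not called. The kinase adaptor Mob1b and the cofactor Vgll4 fell (-1.62 ± 0.19 and -1.73 ± 0.53).

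**Figure D3:**
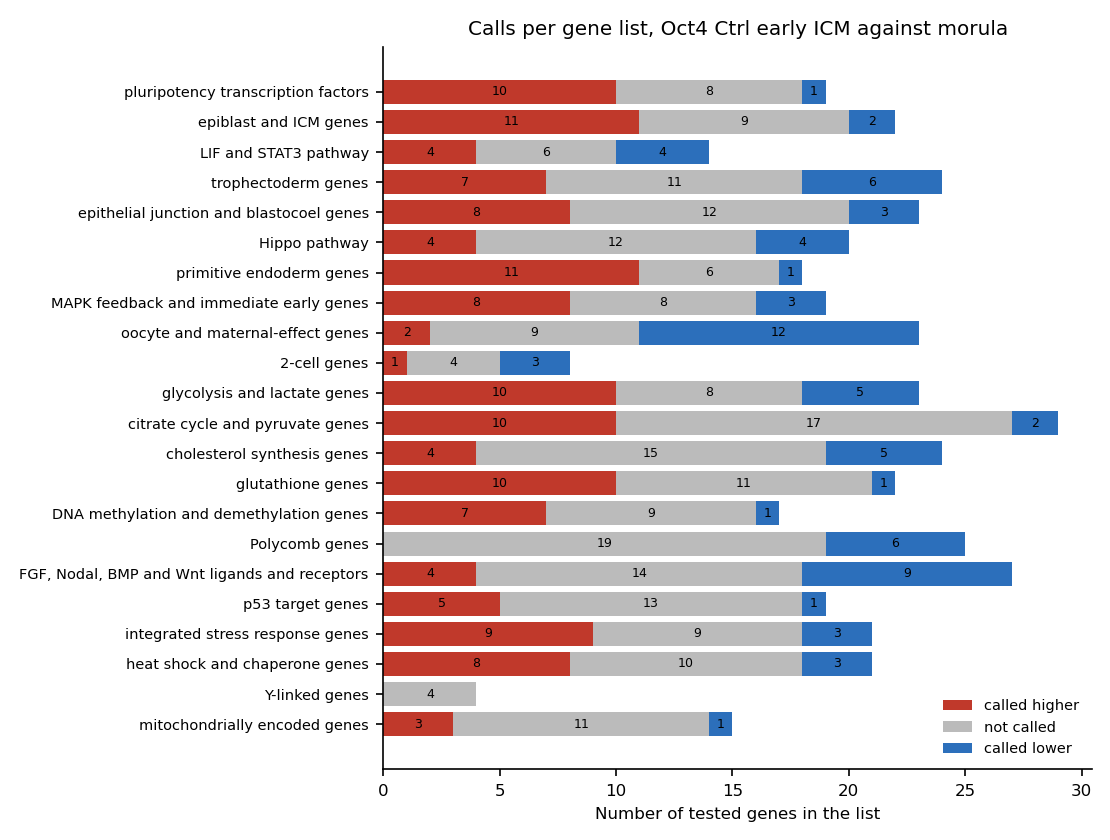
Number of tested genes (x axis) of each of 22 lists that were called higher (red), not called (grey) or called lower (blue) in 8 Oct4 Ctrl early ICMs against 8 morulae. Over all 14053 genes 14.1% were called higher and 14.9% lower, the primitive endoderm list had 11 of 18 higher, the oocyte list had 12 of 23 lower and the Polycomb list had 6 of 25 lower.

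The 12 strongest rises among well expressed genes that did not overlap between the groups were nearly absent from morulae. Adh1, an alcohol dehydrogenase that can oxidise retinol (chromosome 3, 138260991 to 138290698), had 0 UMIs in 8 morulae and 515 in the early ICMs, at least 184.5-fold higher with a floor of 3 UMIs over the group. Its early ICMs ran from 1.07 to 320 CPM with a median of 37.3 CPM, so its level differed widely between embryos. Oaf and the lectin Clec2i held 1 UMI each in morulae, against 179 and 164 in early ICMs, which are depth-corrected ratios of 0.52% (exact interval 0.0131% to 2.93%) and 0.567% (0.0143% to 3.21%). The microsomal glutathione transferase Mgst2 and the protease-like Prss35 held 3 UMIs each, against 201 and 200.
Upp1, which splits uridine to release ribose phosphate, was at 0, 1.09 and 10.2 CPM in morulae and 54.3, 205 and 355 CPM in early ICMs (5.83 ± 0.44, adjusted p 1.12e-20). The others were the T-box factor Tbx15 (medians 0 and 36.5 CPM, 5.63 ± 0.51), Ildr1, a protein of tricellular junctions (0.56 and 51.4 CPM, 5.37 ± 0.54), Egr1, Fam25c (0.53 and 34.8 CPM, 5.07 ± 0.53), Sparc, and Dglucy, a D-glutamate cyclase (0.49 and 14.4 CPM, 4.99 ± 0.57). Overlapping genes are annotated for Adh1, Clec2i, Dglucy, Mgst2 and Tbx15.

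The Upp1 promoter is shown because Upp1 is one of these rises, its change differed in Oct4 KO embryos, and it holds a site for AP-1, the factor built from Fos and Jun proteins. It is from RefSeq on GRCm38.p6, chr11:9117853-9118152, plus strand, with the match to TGAGTCA in capitals.
Upp1: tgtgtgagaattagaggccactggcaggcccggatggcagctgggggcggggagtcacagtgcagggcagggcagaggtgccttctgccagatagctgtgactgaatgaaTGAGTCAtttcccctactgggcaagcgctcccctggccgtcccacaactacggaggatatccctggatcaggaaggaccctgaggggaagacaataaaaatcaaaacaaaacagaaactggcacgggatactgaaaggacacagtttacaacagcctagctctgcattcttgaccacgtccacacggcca
TGAGTCA, searched on both strands, is in 3.45% of the 10094 promoters, in 4.5% of those called higher and in 3.03% of those called lower. The match says nothing of whether the site is used in the embryo.

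Among the 12 strongest falls of the same kind, those described here were genes present in morulae and nearly gone from early ICMs. Foxe1, a forkhead factor known from the thyroid (chromosome 4, 46343609 to 46346412), was at 102, 124 and 203 CPM in morulae and 1.07, 3.00 and 6.39 CPM in early ICMs (-5.40 ± 0.40, adjusted p 3.46e-21). A second forkhead factor, Foxa1, fell from 7.15, 23.2 and 171 CPM to 0, 1.15 and 4.54 CPM (-4.87 ± 0.55). The homeobox gene Uncx held 185 UMIs in morulae and 3 in early ICMs. Tmem145 and Exoc3l4 held 182 and 233 UMIs in morulae, against 1 and 2, which are ratios of 0.59% (exact interval 0.0149% to 3.33%) and 0.922% (0.111% to 3.37%).
Genes of secreted factors were among them as well. Tnfsf13b, the cytokine BAFF, fell from 36.4, 76.7 and 258 CPM to 0, 1.68 and 8.37 CPM (-5.28 ± 0.42), and Hcrt, the precursor of the orexin peptides, from 33.7, 69.0 and 130 CPM to 0, 1.60 and 4.81 CPM (-5.01 ± 0.45). Sp110, a nuclear body protein on the list of genes of the 2-cell stage, fell from 79.7, 204 and 455 CPM to 4.44, 9.31 and 21.6 CPM (-4.43 ± 0.41). Smim40 (-4.69 ± 0.40), the phospholipase Plcd3 (-4.66 ± 0.41) and Rusc1 (-4.54 ± 0.42) belonged to them too. Overlapping genes are annotated for Foxe1, Exoc3l4, Tnfsf13b, Sp110, Plcd3 and Rusc1.

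By the amount of message gained or lost, other called genes led. The largest gain among called genes was that of mt-Rnr1, the small mitochondrial ribosomal RNA (1637, 2060 and 5866 CPM in morulae, 4617, 5432 and 6660 CPM in early ICMs, 1.15 ± 0.18). Its highest morula is the embryo labelled 15, which also had the highest mitochondrial share, 6.29%. Fabp5, a carrier of fatty acids and retinoic acid, went from 42.3, 93.9 and 136 CPM to 854, 1027 and 1162 CPM. Its groups did not overlap (3.52 ± 0.24, adjusted p 2.88e-23). The ubiquitin gene Ubb (1.4 ± 0.15), thioredoxin Txn1 (1.53 ± 0.18), and the peroxidase Prdx1 (1.49 ± 0.14) also rose without overlap. The largest losses among called genes were those of Isyna1, the first enzyme of inositol synthesis (1837, 2486 and 3536 CPM against 488, 755 and 901 CPM, -1.79 ± 0.25), Gpd1l, a glycerol phosphate dehydrogenase (medians 1941 and 295 CPM, -2.96 ± 0.32), and the alkaline phosphatase Alppl2 (medians 1731 and 178 CPM, -3.34 ± 0.45). Timd2 (-2.02 ± 0.22), the mitochondrial import protein Tomm5 (-2.40 ± 0.14) and elongin C, Eloc (-1.06 ± 0.16), followed, all without overlap. Eloc lies close to the fold threshold and was not called without the early ICM labelled 9 (-0.9957) or the morula labelled 1 or 11.

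Of 23 tested oocyte and maternal-effect genes, 12 were called lower, 2 higher and 9 were not called, with a median log2 fold change of -1.96, or -1.5 with members at 0 UMIs in a group set to their bound. The summed level of the list did not fall with them and ran from 672 to 1024 CPM in morulae and from 802 to 1590 CPM in early ICMs. The zona pellucida genes were at 29, 37 and 93 UMIs (Zp1, Zp2, Zp3) in morulae and 2, 7 and 19 in early ICMs, and the oocyte ligand Gdf9 fell from 67 to 9 UMIs. Oosp1 fell from 225 to 9 UMIs (-4.42 ± 0.61), the linker histone H1foo from 31 to 2, and Nlrp14 from 42 to 3. Ooep, part of the subcortical maternal complex, went the other way (6.38, 13.5 and 20.9 CPM against 37.4, 60.1 and 167 CPM, 2.46 ± 0.39), as did Tcl1 (17 and 55 UMIs). Its partners in that complex, Khdc3 (0.47 ± 0.16) and Tle6 (-0.64 ± 0.34), were not called. Bmp15 had 17 and 5 UMIs and was not called, but was called lower without the early ICM labelled 1 or the morula labelled 7 or 11. Of 8 tested genes of the 2-cell stage, 3 were called lower, Sp110 and Spz1 (7 and 0 UMIs, a call lost with DESeq2 and with limma) among them, and Usp17la was called higher (2 and 33 UMIs). Usp17la and Usp17lc belong to a family of near-identical copies. B020004J07Rik had 10 and 19 UMIs and was not called.

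Energy metabolism changed in named steps. In glycolysis, 10 of 23 members were called higher and 5 lower (median 0.54). The glucose transporter Slc2a1 rose from 9.36, 14.1 and 34.1 CPM to 62.5, 87.0 and 131 CPM (2.38 ± 0.32, adjusted p 1.01e-09) and glucose phosphate isomerase Gpi1 from a median of 24.0 to 112 CPM (2.04 ± 0.19). The count called higher was 6 without the morula labelled 1 or 11 or the early ICM labelled 2. Eno1 was called on 1 and 9 UMIs, a call lost without the early ICM labelled 2 or 7, and its copy Eno1b and pseudogenes can share its reads. The hexokinase Hk1 (-1.95 ± 0.35), the lactate dehydrogenase chain Ldhb (-3.29 ± 0.52) and Eno2 (-1.82 ± 0.60) fell. The transporter Slc2a3 (-0.00 ± 0.32) and Pgam1 (-0.25 ± 0.17) were not called.
In the citrate cycle and pyruvate list 10 of 29 were called higher and 2 lower (median 0.84). Me1, the NADPH-making malic enzyme, rose from 13.5, 55.6 and 80.6 CPM to 200, 296 and 344 CPM (2.46 ± 0.26), Pck2, a mitochondrial PEP carboxykinase, from a median of 2.00 to 16.3 CPM (3.41 ± 0.49), and Aco1 from 29.9 to 129 CPM (2.01 ± 0.25). The 2 members that fell are the subunits of the mitochondrial pyruvate carrier: Mpc1 went from 355, 407 and 558 CPM to 121, 144 and 161 CPM (-1.57 ± 0.14, adjusted p 2.57e-17) and Mpc2 from 307, 431 and 624 CPM to 88.6, 130 and 157 CPM (-1.80 ± 0.13, adjusted p 7.5e-22). Pdhb (0.18 ± 0.09) and Mdh2 (-0.46 ± 0.10) were not called.

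Cholesterol synthesis had 4 of 24 members called higher and 5 lower (median -0.25, or 0.00663 without the morula labelled 18). The sterol carrier Stard4 (medians 49.8 and 8.05 CPM, -2.62 ± 0.43), squalene epoxidase Sqle (27.9 and 7.07 CPM, -1.86 ± 0.46) and Cyp51 (-1.94 ± 0.55) fell. Srebf2, the factor that drives the pathway (1.89 ± 0.54), Ebp (1.06 ± 0.28) and Tm7sf2 (1 and 9 UMIs) were called higher. The call of Tm7sf2 was lost in 8 of 28 alternatives, among them without the early ICM labelled 9 (2.25, adjusted p 0.0503) or those labelled 1 or 2, and that of Ebp in 5 of 29, among them without the early ICM labelled 3 or the morula labelled 19. Dhcr7 (-0.44 ± 0.22) and Insig1 (-0.74 ± 0.35) were not called. Of 22 glutathione genes, 10 were called higher and 1 lower (median 0.85). Glutaredoxin Glrx was at 1.04, 13.9 and 30.8 CPM in morulae and 227, 337 and 480 CPM in early ICMs (4.57 ± 0.34, adjusted p 3.46e-21), and Gstm1 went from 3 to 42 UMIs. Gpx4, the peroxidase that acts on membrane lipids, was the member that fell (81.1, 104 and 171 CPM against 19.2, 32.5 and 43.0 CPM, -1.74 ± 0.19). In Sox2 Ctrl embryos, compared below, Gpx4 rose (log2 change 1.085). The changes differed between the lines by -2.83 ± 0.27 (interaction term in edgeR, adjusted p 2.37e-15). Gpx1 (-0.37 ± 0.14) and Gsto1 (-0.47 ± 0.28) were not called.

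Of 17 genes that write, read or remove DNA methylation, 7 were called higher and 1 lower (median 0.86). Tet1, which oxidises methylcytosine, rose from 35.1, 53.3 and 73.9 CPM to 177, 294 and 468 CPM (2.52 ± 0.17, adjusted p 6.12e-23). Uhrf1, which brings Dnmt1 to newly copied DNA, rose from 0, 9.52 and 27.6 CPM to 40.9, 56.5 and 109 CPM (2.86 ± 0.32), and its relative Uhrf2 from a median of 4.28 to 31.7 CPM (2.87 ± 0.37). Mbd3, a subunit of the NuRD complex, fell from 277, 322 and 368 CPM to 105, 125 and 149 CPM (-1.34 ± 0.11, adjusted p 6.4e-19). Trim28 (0.67 ± 0.13) and Tet2 (0.60 ± 0.16) were not called. Of 25 Polycomb genes, 6 were called lower and 0 higher by edgeR (median 0.16, or -0.0617 without the early ICM labelled 2). DESeq2 and limma called 0 higher as well. The edgeR calls are 24% of the list, against 29.0% of all genes tested. The count called higher changed in 9 of 28 alternatives: it was 6 with no fold minimum, and 1 without the early ICM labelled 7 or 9 or the morula labelled 18 or 19, among others. The ones that fell belong to the PRC1 complex or its KDM2B form: Pcgf5 (60.2, 107 and 119 CPM against 7.18, 18.3 and 36.4 CPM, -2.3 ± 0.25, adjusted p 2.47e-13), Cbx2 (-2.06 ± 0.43), Pcgf1 (-2.0 ± 0.30), Pcgf6, Kdm2b and Ring1. The PRC2 cofactor Jarid2 (0.70 ± 0.16) and Rbbp7 (0.40 ± 0.19) were not called. The PRC2 core genes Ezh2 (0.75 ± 0.16), Eed (0.65 ± 0.12) and Suz12 (0.29 ± 0.16) stayed under the fold threshold.

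Of 27 ligands, receptors and modulators of the FGF, Nodal, BMP and Wnt pathways, 4 were called higher and 9 lower, with a median of -0.02 that turned positive when scaled by total UMIs. Among the ligands of this list, which leaves out Fgf4 and Bmp4, Fgf10 was called higher (0 to 4.66 CPM against 15.6 to 68.2 CPM, 4.24 ± 0.55), and with it the Wnt receptor Fzd5 (medians 12.4 and 99.0 CPM, 2.82 ± 0.25, adjusted p 7.59e-17) and the Wnt feedback gene Axin2 (3.62 and 28.2 CPM, 2.47 ± 0.39). The FGF family members Fgf1 and Fgf13 fell from 76 and 73 UMIs to 1 each, and the receptor Fgfr3 from a median of 17.4 to 1.62 CPM (-3.41 ± 0.56). Fgfr1, the abundant receptor, was not called (48.5 to 82.6 CPM against 81.8 to 142 CPM, 0.81 ± 0.21), nor was Bmpr1a (-0.60 ± 0.17).

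Stress programmes were examined because one group was cultured and isolated. In the p53 list 5 of 19 were called higher and 1 lower (median 0.62), in all 31.6% against 29.0% of all genes tested. The apoptosis gene Pmaip1 (1.65 ± 0.41), Btg2 (1.43 ± 0.40) and the kinase Plk2 (2.77 ± 0.62) led, and Perp was called lower (-1.01 ± 0.30). Cdkn1a (0.81 ± 0.42) and Trp53 (0.85 ± 0.26) were not called, though Cdkn1a was without the morula labelled 19. Perp lies at the fold threshold, and its call was lost in 17 of 29 alternatives, including without the early ICM labelled 9 (-0.9098) or any 1 of 9 other embryos. In the integrated stress response list 9 of 21 were called higher and 3 lower (median 0.75). Asns, asparagine synthetase, rose from 2.13, 21.7 and 32.2 CPM to 14.3, 90.5 and 308 CPM (2.47 ± 0.46), the transporter Slc7a1 from 9 to 81 UMIs (3.12 ± 0.62) and Nupr1 from 27 to 134 UMIs. The serine synthesis genes Phgdh (329, 478 and 585 CPM against 61.2, 106 and 177 CPM, -2.08 ± 0.26) and Psat1 (-1.16 ± 0.18) fell, as did Cebpb (-1.56 ± 0.34). Atf4 (0.68 ± 0.14) and Eif4ebp1 (-0.03 ± 0.16) were not called.
Of 21 heat shock and chaperone genes, 8 were called higher and 3 lower (median 0.69). Hspa5 (BiP), a chaperone of the endoplasmic reticulum, was at 24.5, 68.0 and 99.98 CPM in morulae and 152, 216 and 275 CPM in early ICMs (1.67 ± 0.31, adjusted p 4.85e-06), and Hsp90b1 had medians of 44.0 and 138 CPM (1.69 ± 0.29). Pdia3, Pdia4 and Pdia6, of the same compartment, were called higher as well, and Calr (0.77 ± 0.26) and Canx (0.30 ± 0.12) were not called. The cytosolic Hspa4 rose too (81.0 and 236 CPM, 1.48 ± 0.14). The stress-inducible Hspa1b (44.2 and 3.88 CPM, -3.50 ± 0.56) and Hspa1a (67 and 3 UMIs) fell with their regulator Hsf1 (-1.08 ± 0.18), whose call was lost when scaled by total UMIs and with limma on the rlog values. Hspa1a and Hspa1b are near-identical copies whose reads can be split between them. The abundant Hsp90aa1 (0.60 ± 0.13) and Hsp90ab1 (-0.39 ± 0.16) were not called.

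Of 15 mitochondrially encoded genes, 3 were called higher and 1 lower, in all 26.7% against 29.0% of all genes tested. The higher ones were mt-Rnr1, mt-Co3 (medians 232 and 821 CPM, 1.78 ± 0.21) and mt-Co2 (130 and 277 CPM, 1.15 ± 0.20). The lower one was mt-Nd3 (488 and 137 CPM, -1.73 ± 0.19). The most abundant, mt-Nd1, was not called (0.06 ± 0.10), nor was mt-Rnr2 (0.41 ± 0.17). None of 4 tested Y-linked genes was called, among them Ddx3y (0.82 ± 1.00) and Eif2s3y (2.25 ± 1.04). Eif2s3y was called higher without 1 of 6 embryos, the morulae labelled 18 and 19 and the early ICMs labelled 2, 3, 8 and 9.

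The same passage was measured in 8 Sox2 Ctrl morulae and 8 Sox2 Ctrl early ICMs, which come from other parents and share no embryo with the 16 above. Their mothers carried floxed Sox2 on both copies together with Zp3-Cre. The fathers were heterozygous for a Sox2 knockout allele marked with the fluorescent protein EGFP. Sox2 Ctrl embryos thus had no maternal Sox2 and an intact paternal copy of Sox2, so they are not wild type either. Pou5f1 was not targeted in this cross. Of the 4080 genes called in Oct4 Ctrl, 2202 (54.0%) were called in the same direction in Sox2 Ctrl, and they are 49.1% of the 4489 genes called there. Another 57 were called in opposite directions. Counting the sign alone, called or not in Sox2 Ctrl, 3562 of the 4080 (87.3%) changed in the same direction. The stage change itself differed between the lines for 2328 genes (16.6% of those tested, interaction term in edgeR), of which 879 were called in Oct4 Ctrl. Line, parents and any difference in the handling of the 2 sets cannot be told apart.

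**Figure D4:**
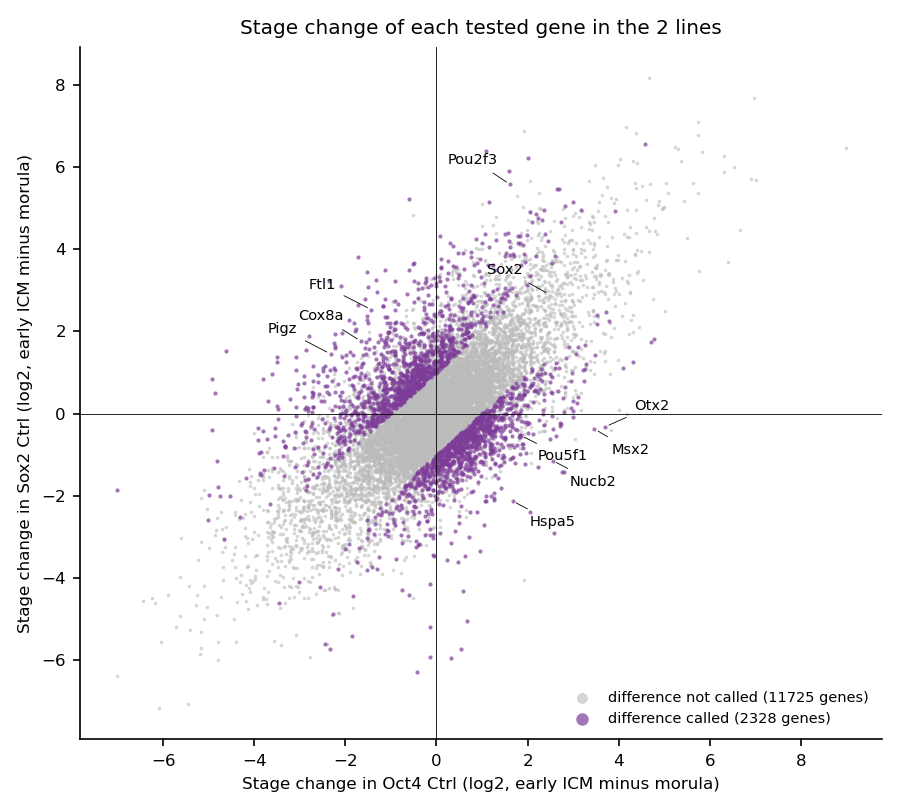
Log2 fold change from morula to early ICM of each of the 14053 tested genes in Oct4 Ctrl (x axis) and in Sox2 Ctrl (y axis), 8 and 8 embryos in each line; purple points are the 2328 genes whose change differed between the lines. Sox2 lies with the rising genes of both lines, and Pou5f1, Hspa5, Nucb2, Msx2 and Otx2 lie to the right of the vertical line and below the horizontal one.

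Pou5f1 was among those that differed. Sox2 Ctrl embryos, from mothers in which Sox2 and not Pou5f1 was floxed, were at 67.0, 81.0 and 99.8 CPM as morulae and 38.6, 52.96 and 85.3 CPM as early ICMs. Their log2 change was -0.53, and the difference of the changes (Oct4 Ctrl minus Sox2 Ctrl) was 2.38 ± 0.29 (adjusted p 5.19e-11). The lines stood further apart as morulae: all 8 Oct4 Ctrl morulae were below all 8 Sox2 Ctrl morulae, whereas the early ICMs overlapped. Sox2 itself did not differ by this test (-0.42 ± 0.44, adjusted p 0.545).
Of the genes called in both tests, the 4 with the highest difference were Otx2 (4.03 ± 0.85), Msx2, a homeobox gene (3.85 ± 0.77), Hspa5 (3.80 ± 0.45, adjusted p 2.37e-11) and Nucb2, a calcium-binding protein (3.69 ± 0.49). Hspa5 rose in Oct4 Ctrl but in Sox2 Ctrl went from 77.0, 160 and 669 CPM to 36.7, 55.4 and 71.3 CPM, so that the early ICMs of the lines did not overlap. The 4 lowest were the POU factor Pou2f3 (-3.97 ± 0.82), the ferritin light chain Ftl1 (-3.96 ± 0.31, adjusted p 1.01e-19), Pigz (-3.78 ± 0.62) and Cox8a, a subunit of cytochrome oxidase (-3.42 ± 0.19, adjusted p 5.37e-28). Cox8a fell in Oct4 Ctrl from 1584, 1740 and 2441 CPM to 476, 550 and 757 CPM and in Sox2 Ctrl rose from 342, 397 and 566 CPM to 1279, 1488 and 1628 CPM. Ftl1 behaved alike, from 316, 474 and 573 CPM to 116, 172 and 245 CPM against 75.3, 150 and 208 CPM to 531, 828 and 1211 CPM. For both genes the 2 stages did not overlap within either line, nor did the 2 lines at either stage.
Lists differed in how many of their members this took in. Of the 21 heat shock and chaperone genes 12 differed between the lines, with 8 higher and 3 lower in Oct4 Ctrl and 1 higher and 7 lower in Sox2 Ctrl. Of the 24 cholesterol synthesis genes 9 differed, with 4 higher and 5 lower in Oct4 Ctrl and 10 higher and 1 lower in Sox2 Ctrl. Of the 25 Polycomb genes 8 differed, and of the 22 epiblast and ICM genes 7. Of the 24 trophectoderm genes 6 differed, with 7 higher and 6 lower in Oct4 Ctrl and 3 higher and 9 lower in Sox2 Ctrl. Cdx2 and Gata3, not called in Oct4 Ctrl, changed by -2.82 and -1.72 in Sox2 Ctrl (interaction term in edgeR, adjusted p 9.07e-05 and 0.000732). These differences were not tested without the early ICM labelled 9. Of the primitive endoderm genes 1 of 18 differed, with 11 and 12 called higher, and of the oocyte genes 1 of 23, with 12 and 14 called lower.

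The Hspa5 promoter is shown because Hspa5 moved in opposite directions in the 2 lines, and the choice was made after its values were seen. It is from RefSeq on GRCm38.p6, chr2:34771840-34772139, plus strand. The capitals mark an ER stress element, CCAAT and CCACG with 9 bases of any kind between them.
Hspa5: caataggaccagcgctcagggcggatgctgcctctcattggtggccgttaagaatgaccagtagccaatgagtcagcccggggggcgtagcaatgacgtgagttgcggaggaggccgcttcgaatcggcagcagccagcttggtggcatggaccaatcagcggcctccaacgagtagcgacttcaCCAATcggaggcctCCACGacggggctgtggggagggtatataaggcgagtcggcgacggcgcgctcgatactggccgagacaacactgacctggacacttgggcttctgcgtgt
The element, searched on both strands, is in 20 of the 10094 promoters (0.198%), in 0.346% of those called higher and in 0.132% of those called lower.

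The same stages were measured without the zygotic copy of Pou5f1 in 8 Oct4 KO morulae and 8 Oct4 KO early ICMs, from the same kind of cross, that inherited the mKO2 allele. They held 3 and 7 Pou5f1 UMIs over the 8 embryos of each stage, against 163 and 550 in Oct4 Ctrl. The stage change differed from that of Oct4 Ctrl for 462 genes (3.29% of those tested), and 241 of these were called in Oct4 Ctrl, 132 of the genes called higher and 109 of those called lower. The test of the difference and the calls in Oct4 Ctrl use the same Oct4 Ctrl embryos. Among the genes called in both tests, the lowest differences (Oct4 KO minus Oct4 Ctrl) were those of Bmp4, St3gal4 (a sialyltransferase), Hnf4a and Upp1. Upp1 stayed at 0, 1.93 and 4.64 CPM in KO morulae and 0, 3.13 and 9.31 CPM in KO early ICMs (difference -5.03 ± 1.07, adjusted p 0.00123), below every Oct4 Ctrl early ICM. Hnf4a held 6 UMIs in KO morulae and 1 in KO early ICMs (-5.32 ± 1.28), and Bmp4 and St3gal4 held 0 in KO early ICMs, against 51 and 58 in Oct4 Ctrl (adjusted p of the difference 0.0366 and 0.0163). The highest differences were those of Lrp2, the small GTPase Arl4d, the peptide hormone gene Nppb and the adenylate kinase Ak7. Lrp2, which fell in Oct4 Ctrl, was at 63.0, 78.4 and 195 CPM in KO morulae and 91.0, 182 and 468 CPM in KO early ICMs (3.73 ± 0.55, adjusted p 8.05e-07), and Ak7 at 26.7, 55.9 and 129 CPM and 9.00, 34.1 and 112 CPM (2.72 ± 0.53). Arl4d held 15 and 55 UMIs in Oct4 Ctrl and 5 and 207 in KO (3.31 ± 0.85), and Nppb fell in Oct4 Ctrl from 207 to 10 UMIs and held 143 and 70 in KO (3.31 ± 0.95). Sox2 reached 95.6, 135 and 285 CPM in KO early ICMs, and its stage change was not shown to differ (0.30 ± 0.43, adjusted p 0.788). Of the 22 epiblast and ICM genes 8 differed in KO, among them Tdgf1, a Nodal co-receptor (adjusted p 2.37e-14), Utf1 (adjusted p 4.75e-12) and Fgf4, which were picked here after their values were seen.

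**Figure D5:**
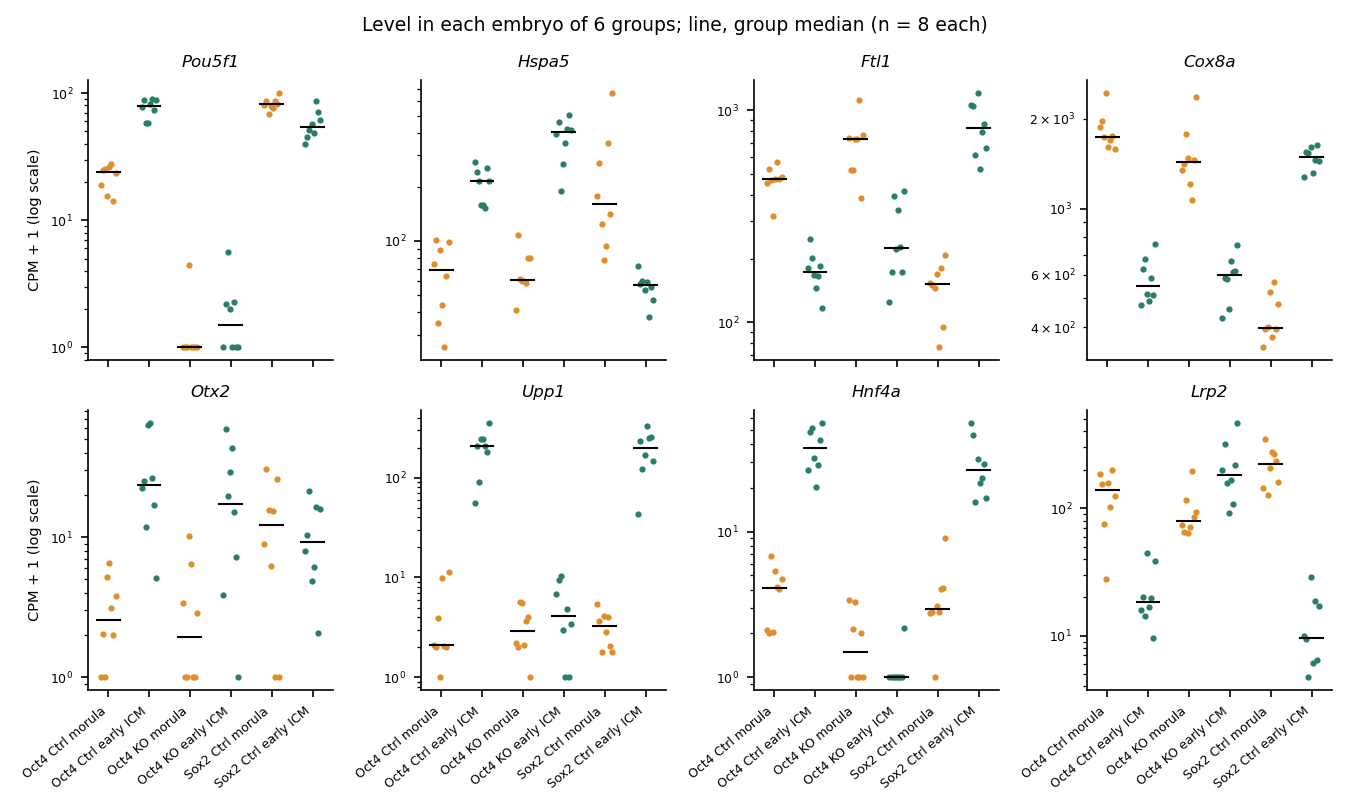
CPM plus 1 (y axis, log scale) of 8 genes in each of 8 embryos of 6 groups: Oct4 Ctrl, Oct4 KO and Sox2 Ctrl, morula in orange and early ICM in green; black lines are group medians. Upp1 and Hnf4a are higher in the early ICMs of both Ctrl lines and stay low in Oct4 KO, Lrp2 is lower in the early ICMs of the Ctrl lines, and Cox8a and Ftl1 fall in the Oct4 line and rise in Sox2 Ctrl.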

How the data were processed

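Single morulae and single isolated ICMs were sequenced from the 3′ end with UMIs. The authors demultiplexed and counted the reads with UMI-tools, Cutadapt, TopHat2 on mm10, featureCounts on GENCODE vM23 and TRUmiCount, and the deposited gene counts are corrected UMI counts for 29022 genes. Versions and the strand setting of the counting are not given in the sources used here. The authors also deposited rlog values from DESeq2, which are on a log2 scale and were used for 1 alternative. The 8 morulae and 8 early ICMs were compared with edgeR (4.0.16, R 4.3.3) by the quasi-likelihood test, with TMM scaling, in a fit of 96 Ctrl and KO embryos in 12 groups. Genes had to be detected in 0.5 of the embryos of a stage, which left 14053. P-values were adjusted by Benjamini-Hochberg, and a call needed an adjusted p under 0.05 and a log2 change of at least 1. Errors, given as SE, were derived from that fit as the size of the log2 change divided by the square root of its F statistic. They are approximate, and unreliable where a change is near 0 or a group has hardly any UMIs. CPM are TMM-scaled counts, which are not per gene length. Single measures of embryos were compared by exact permutation (scipy 1.17.1). Alternatives used limma 3.58.1 and DESeq2 1.42.0. The test script was checked on simulated counts.

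Embryos were grouped by the labels. Each library is 1 embryo, and no source used here says which embryos shared a litter, so p-values measure the spread between embryos, not litters. Those of edgeR use a spread estimated over the 96 embryos of the fit, and the permutation tests use the 16 embryos compared. No pair of the 56 pairs of libraries within a group was alike within sampling noise. Replicate numbers 1, 4 and 7 occur in both groups, and the deviations of same-numbered embryos had correlations of 0.007, 0.035 and 0.011, so numbers were not treated as pairs. Intervals for low UMI counts are exact at 95% and cover counting error only. A group at 0 UMIs was set to a floor of 3 UMIs over the group for bounds.

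Named genes were Pou5f1 and Sox2, the 12 highest and 12 lowest changes among called genes of at least 20 CPM without overlap, the 6 largest gains and 6 largest losses of CPM, of each list up to 3 called members per direction and the 2 most abundant uncalled ones, and for each interaction the 4 highest and 4 lowest. Clone and predicted names were left out. Some genes that this rule names are not reported here. Lists, members and tests were chosen with earlier results of these data known. Promoters are from RefSeq, and 10094 of the tested genes matched.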

Additional observations from a re-analysis of the deposited data

Results flagged for a closer look

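In 7 of 86 groups of 8 embryos examined, 1 embryo lay farther from the others than Dixon's 95% limit allows, a limit that chance passes in about 1 of 20 groups. The morula labelled 15 had 6.29% mitochondrial UMIs (others 4.43 to 5.01%), 5870 CPM of mt-Rnr1 (others 1640 to 2490 CPM), 5.51 CPM of Egr1 (others at most 1.04 CPM) and 1.1 CPM of Oaf (others 0). The early ICM labelled 9 had 926 CPM of Eloc, against 1190 to 1470 CPM in the others. The morula labelled 19 had 0.932 CPM of Clec2i and the early ICM labelled 4 had 1.07 CPM of Tmem145, both against 0 in the others, which is a single UMI each.

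The stage change differed between Oct4 Ctrl and Sox2 Ctrl for 2328 genes by the interaction term in edgeR. Among named genes the difference on the log2 scale (Oct4 Ctrl minus Sox2 Ctrl) was 4.03 for Otx2 (adjusted p 0.00011), 3.85 for Msx2 (3.79e-05), 3.80 for Hspa5 (2.37e-11), 3.69 for Nucb2 (1.83e-09) and 2.38 for Pou5f1 (5.19e-11). It was -3.97 for Pou2f3 (7.05e-05), -3.96 for Ftl1 (1.01e-19), -3.78 for Pigz (6.13e-07), -3.42 for Cox8a (5.37e-28), -2.53 for Rusc1 (0.000821), -2.41 for Hcrt (0.0284) and -1.62 for Plcd3 (0.0387). Rusc1, Hcrt and Plcd3 were lower in the early ICMs of both lines.

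The stage change differed between Oct4 KO and Oct4 Ctrl for 462 genes. Among named genes the difference (Oct4 KO minus Oct4 Ctrl) was 3.73 for Lrp2 (edgeR adjusted p 8.05e-07), 3.31 for Arl4d (0.00945), 3.31 for Nppb (0.0244) and 2.72 for Ak7 (0.000278). It was -6.42 for Bmp4 (0.0366), -6.30 for St3gal4 (0.0163), -5.32 for Hnf4a (0.00523) and -5.03 for Upp1 (0.00123). The values of Bmp4 and St3gal4 rest on a KO group at 0 UMIs and depend on the prior count.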

How the results depend on the processing

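The 1988 genes called higher and 2092 called lower came to 1257 and 1222 with a mean of at least 10 CPM (fewer genes tested), 922 and 1014 with limma on the rlog values (the cause was not tested), and 3339 and 3409 with no fold minimum, where the difference from Sox2 Ctrl came to 3671. Leaving out 1 embryo gave 1924 to 2103 higher and 1936 to 2050 lower. Scaling by total UMIs gave 2260 and 1831, DESeq2 1865 and 1917, and embryos with few Y-linked UMIs, an alternative chosen after seeing the data, 1842 and 1740. The replicate block on the 6 embryos with shared numbers gave 1379 and 1419, against 1355 and 1430 in these embryos without the block. The KO difference ran from 314 (thinned counts) to 680 (no fold minimum). No called gene that is named changed sign, but of 160 such calls limma on the rlog values lost 25, among them Arl4d, Fosl1, H1foo, Jak2, Krt7, Nupr1, Sox17, Tcl1, Tead3, Usp17la, Vgll4, Zp1 and Zp2, the block lost 25 and the same embryos without it 28. Each other alternative lost at most 7.

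The uncalled named genes that changed sign had these log2 changes. Scaling by total UMIs gave 0.0637 for Eif4ebp1, 0.0815 for Gata6, 0.0367 for Phlda1 and 0.0761 for Slc2a3. The block gave 0.0434 for Eif4ebp1, 0.196 for Gata6, 0.106 for Spred2 and 0 for Hba-a1, and the same embryos without it 0.188 for Gata6, 0.121 for Spred2 and 0 for Hba-a1. Embryos with few Y-linked UMIs gave -3.48 for B020004J07Rik, 0.0452 for Cdx2, 0.0530 for Dppa3, 0.0834 for Eif4ebp1, 0.565 for Krt18, 0.0501 for Krt8, 0.460 for Slc2a3 and -0.00786 for mt-Nd1. Thinned counts gave 0.0577 for Phlda1. Slc2a3 was 0.0222 with no filter and 0.0149 in the fit of all embryos. Leaving out 1 embryo gave ranges of -1.65 to 1.48 (B020004J07Rik), -0.478 to 0.0499 (Cdx2), -0.0778 to 0.0799 (Eif4ebp1), -0.0887 to 0.442 (Gata3), -0.110 to 0.0737 (Gata6), -0.133 to 0.0933 (Phlda1), -0.196 to 0.156 (Slc2a3) and -0.0325 to 1.42 (Tfap2a). The lowest of Cdx2, Eif4ebp1, Gata3 and Tfap2a are without the early ICM labelled 9.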

Other observations

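Gene families were grouped by symbol after the data were seen. Of 43 tested histone genes 26 were called higher in early ICMs and none lower (median log2 change 1.62), by the edgeR fit used throughout. Hist1h2bc rose from 0 to 5.82 CPM in morulae to 18.2 to 176 CPM in early ICMs (4.19 ± 0.58, SE). Most of the others were low, and the copies of this family are so alike that reads can be shared between them. In Sox2 Ctrl 34 were called higher and none lower. Of 86 cytosolic ribosomal protein genes none was called higher and 5 lower (median -0.27). These were Rpl39l (709 to 1076 CPM against 143 to 276 CPM), Rps23, Rpl39, Rps27l and Rpl36. In Sox2 Ctrl 5 of the family were called higher and 1 lower (median 0.25), and 24 of the 86 differed between the lines.

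Of 23 forkhead genes 7 were called lower and 2 higher. Besides Foxe1 and Foxa1, Foxf1, Foxc2, Foxf2, Foxc1 and Foxn2 fell, and Foxd3 and Foxo4 rose. Of 15 Klf genes 5 rose and 2 fell: Klf6 was at 0 to 30.6 CPM in morulae and 152 to 367 CPM in early ICMs (4.20 ± 0.37), Klf9 rose from 82.6 to 156 CPM to 281 to 463 CPM, and Klf17 fell (-3.23 ± 0.57). Of 8 Sox genes 3 were called higher and 2 lower: Sox15 fell from 176 to 363 CPM to 20.2 to 47.2 CPM (-2.97 ± 0.25) and Sox12 fell as well (-1.61 ± 0.47), while Sox21 (2.22 ± 0.32), Sox2 and Sox17 rose. Of 8 laminin genes 6 rose, and Lamb2 fell (-2.73 ± 0.65). Of 8 claudin genes 3 fell, Cldn6, Cldn7 and Cldn9, and none rose.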
